A study of Mus musculus with 16 samples.

Results

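RNase A family genes encode small secreted ribonucleases, and 4 of them were followed here through castration and steroid replacement in the male reproductive tract of the mouse: Rnase10, Ang (angiogenin), Rnase4 and Rnase1. They were found by gene symbol, as every probe set of the array that is annotated with 1 of these 4 symbols and no other. This gave 6 of the 34958 probe sets with a single symbol: 3 for Ang and 1 each for Rnase10, Rnase4 and Rnase1. The 4 genes were tested among 18194 genes.

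The study measured RNA in the efferent duct, which carries fluid and sperm out of the testis, and in the caput, the first part of the epididymis, on 16 arrays. Adult male mice of the strain labelled 129BL/6 were castrated or sham-castrated, left for 14 days, injected once and sampled 12 hours later, and each of the 8 groups had 2 arrays. Sham-castrated mice received vehicle (100 µL of sesame oil with 10% ethanol). Castrated mice received the same vehicle, 0.015 mg testosterone propionate (TP) in it, or 0.015 mg estradiol (E2) in it, so both hormones were given after 14 days without testes. The labels call the arrays duplicates without saying whether each came from its own animals, so p-values describe the spread between these samples, which may be technical. The duct RNA was labelled from 50 ng with an amplification kit and the caput RNA from 10 µg with another kit, so tissue and kit cannot be told apart.

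Ribonucleases of this family share a fold held by disulfide bonds, and most cut RNA outside the cell or in the phagosome. Rnase10 is a member that lacks the catalytic residues. It is secreted by the proximal epididymis and is known for its part in the sperm surface that lets sperm bind the egg coat and pass into the oviduct. Angiogenin cuts transfer RNA in stressed cells and promotes vessel growth. Rnase4 is transcribed from the same promoter region as Ang, and Rnase1 is the pancreatic-type enzyme, made also by endothelium. The initial part of the caput depends on androgen and on factors in the fluid that arrives from the testis, and castration removes both at once.

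The 4 genes lie in 1 cluster on chromosome 14. In the RefSeq annotation (assembly GRCm38.p6) the order of the protein-coding genes there is Rnase10, Rnase9, Rnase11, Rnase12, Olfr750, Ang, Rnase4, Eddm3b, Rnase6, Rnase1, Rnase2b, Ang2, Ear14 and Rnase2a. All 4 genes had an entry in the RefSeq promoter table, with 6 windows in all, of which 5 differ in sequence. The first windows of Ang and Rnase4 are identical, because both genes are annotated with a first start at the same base. The 250 bases before the first listed start are shown for each gene, on the gene's own strand, because the genes differed in their response to castration while 1 pair of them has the same start.

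Rnase10, chr14:51007501-51007750, plus strand: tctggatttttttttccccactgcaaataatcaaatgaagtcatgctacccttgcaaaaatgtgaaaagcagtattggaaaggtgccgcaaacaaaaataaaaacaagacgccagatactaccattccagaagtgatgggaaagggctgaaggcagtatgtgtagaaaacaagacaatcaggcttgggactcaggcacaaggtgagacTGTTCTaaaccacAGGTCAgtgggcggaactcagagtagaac
Ang and Rnase4, chr14:51090827-51091076, plus strand: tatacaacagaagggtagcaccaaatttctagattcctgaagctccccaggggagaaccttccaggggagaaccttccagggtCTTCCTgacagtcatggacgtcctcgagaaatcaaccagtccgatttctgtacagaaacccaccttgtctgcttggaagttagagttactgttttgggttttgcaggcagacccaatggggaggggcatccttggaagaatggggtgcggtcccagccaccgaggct
Rnase1, chr14:51146768-51147017, minus strand: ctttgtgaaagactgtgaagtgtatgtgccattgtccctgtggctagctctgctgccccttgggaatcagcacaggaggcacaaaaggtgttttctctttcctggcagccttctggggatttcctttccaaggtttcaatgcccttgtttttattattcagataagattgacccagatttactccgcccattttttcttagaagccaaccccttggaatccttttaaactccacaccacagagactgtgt

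Capitals mark exact matches, on either strand, to 3 motifs of 6 letters: AGAACA (1 arm of an androgen receptor site, TGTTCT on the other strand), AGGTCA (1 arm of an estrogen receptor site) and AGGAAG (an ETS site of the PEA3 type, CTTCCT on the other strand). In the Rnase10 window TGTTCT begins 42 bases before the start and AGGTCA begins 29 bases before it. The window shared by Ang and Rnase4 holds CTTCCT, beginning 167 bases before the start, and the Rnase1 window holds none of the 3 motifs. Rnase10 and Rnase4 each have a second listed start, whose windows are not shown. The second Rnase10 window overlaps the first and holds 2 matches to AGAACA, 1 to AGGTCA and 1 to AGGAAG on either strand. The second Rnase4 window holds 1 match to AGAACA and 2 to AGGAAG. Of 32851 promoter windows of this length, 16.1% hold AGAACA, 14.0% hold AGGTCA and 29.5% hold AGGAAG on either strand. The matches are a description of these letters, and no binding was measured.

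Values are the authors' intensities on a linear scale. On each array, background was taken here as the highest of 27 probe sets for bacterial control genes, which lay between 2.33 and 14.3. Differences between groups were fitted with limma on log2 intensity over all 18194 genes, with Benjamini-Hochberg adjustment within each comparison, and called at an adjusted p under 0.05. The 8 duct arrays fell into 2 sets. The 4 vehicle arrays had a log2 ratio of 3′ to 5′ actin probe sets of 3.11 to 3.87 and backgrounds of 8.09 to 14.3. The 4 hormone arrays had 0.913 to 1.93 and 2.33 to 3.97, and their highest intensity was 3218 to 4517 against 14456 to 19967. Comparisons of a hormone group with a vehicle group in the duct cross these sets, and 27.5% to 35.5% of all genes were called in them. In the caput the actin ratio was 0.636 to 1.20 on all 8 arrays. The caput marker genes summed to 71971 and 72281 on the caput sham arrays, and the efferent duct markers to 4443 to 7211 on the duct vehicle arrays against 1655 to 1916 on the caput vehicle arrays. Bulk tissue was measured, so fewer cells of a type and less RNA per cell cannot be told apart.

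**Figure D1:**
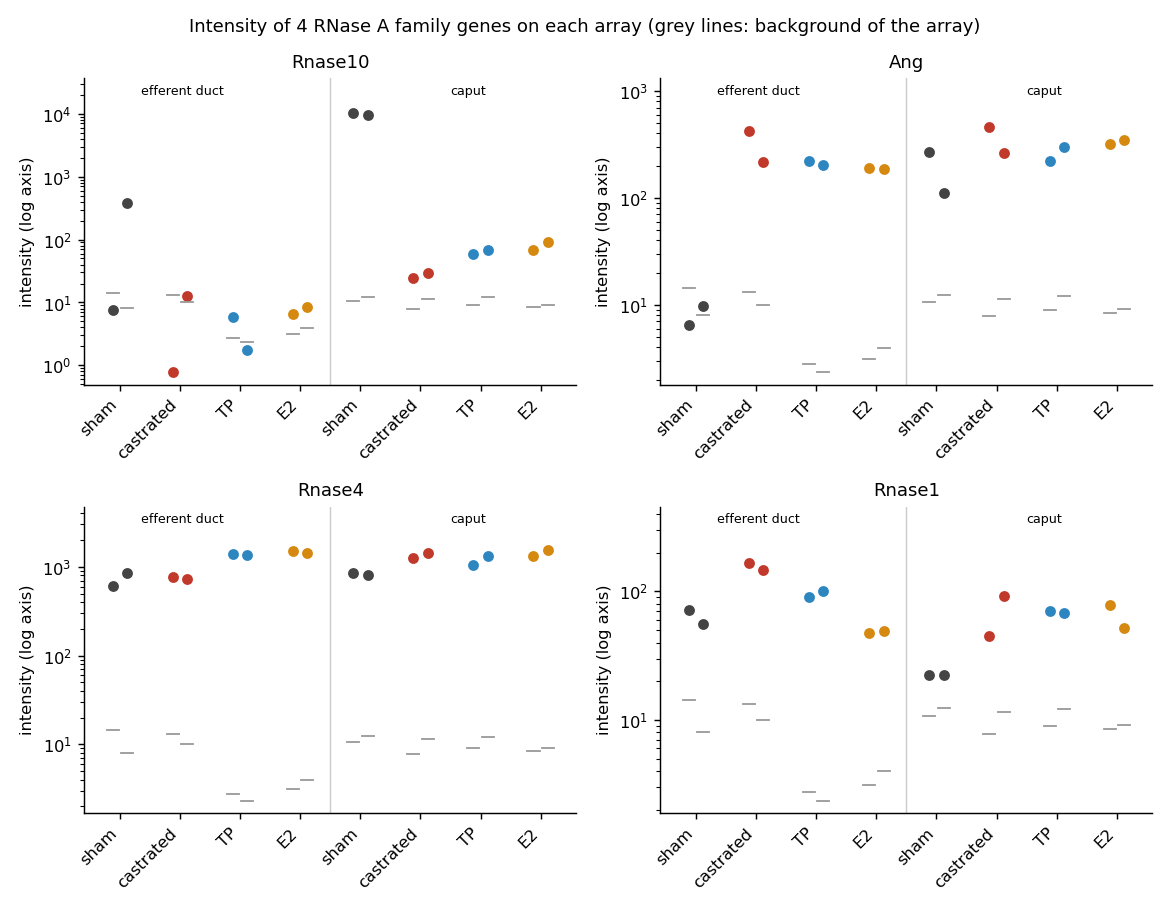
Intensity (log axis) of Rnase10, Ang, Rnase4 and Rnase1 on each of the 16 arrays, by tissue and group; each point is 1 array, and the grey line under or over it is the background of that array. Rnase10 is at 9692 and 10312 on the caput sham arrays and under 100 on every other caput array, and Ang is near background only on the 2 duct sham arrays.

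In the caput, Rnase10 fell after castration and was still more than 100-fold below sham 12 hours after either hormone. Its intensity was 10312 and 9692 on the sham arrays, with a mean of 10002 ± 438 (SD, n = 2). It was 24.4 and 29.7 on the castrated arrays, 59.3 and 67.3 on the TP arrays, and 67.8 and 92.6 on the E2 arrays. The 4 groups did not overlap, the sham arrays stood far above the others, and the order was sham, E2, TP, castrated. From sham to castrated it fell by 8.54 on the log2 scale (95% interval −9.05 to −8.03), which is 372-fold (limma adjusted p = 0.000469). In that comparison 14.0% of all genes were called, and Rnase10 was no longer among them when only the 4 arrays compared were fitted (limma adjusted p = 0.0518).

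Rnase10 stayed below sham with both hormones. TP minus sham was −7.31 (interval −7.82 to −6.80; limma adjusted p = 0.00232), in a comparison that called 9.16% of genes. E2 minus sham was −6.98 (−7.49 to −6.47; limma adjusted p = 0.000742), where 17.2% of genes were called, and it too was lost with only its 4 arrays fitted (0.0517). Both comparisons used the same sham arrays. The lower 3 groups were less well separated from each other. TP was 2.35-fold above castrated, a log2 difference of 1.23 (0.72 to 1.74) with a limma adjusted p of 0.0580, where 1.67% of genes were called. E2 was 2.95-fold above castrated, a difference of 1.56 (1.05 to 2.07) with an adjusted p of 0.0792 by limma, where 0% of genes were called by that test and 2637 had an unadjusted p under 0.05. TP minus E2 was −0.33 (−0.84 to 0.18; limma adjusted p = 0.480), in a comparison with 2.12% of genes called. Both differences from castrated were called without the 40% dimmest genes, with values under 16 set to 16, with 16 added and with an intensity trend in the prior (limma adjusted p 0.00164 to 0.0450 for TP and 0.00116 to 0.0450 for E2). The filter on dim genes used the mean over all 16 arrays, which the 2 caput sham arrays raise for Rnase10. The intensity trend used the mean over the 8 caput arrays, which the same sham arrays raise. The calls of Rnase10 under that filter and with that trend therefore add no support to these 2 differences.

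Markers of the principal cells of the caput and of its initial segment fell with Rnase10 after castration. Of 14 such markers measured, 12 were called lower after castration in the caput and none higher, where 14.0% of all genes were called. Their median log2 difference was −5.14 against 0.06 over all genes. Their summed intensity was 71971 to 72281 on the sham arrays, 9973 to 10378 on the castrated, 16762 to 21855 on the TP and 9991 to 12309 on the E2 arrays. From castrated to TP, 4 of the 14 were called higher and 1 lower, where 1.67% of all genes were called. Adam7, a sperm surface protein, was among those called, with means of 255 and 6002, while Rnase10 was not called. From castrated to E2 none was called, where 0% of all genes were. Germ cell and sperm markers fell after castration as well, with 7 of 8 called lower against the 14.0% of all genes called. The part of either in the fall of Rnase10 was not tested.

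In the efferent duct Rnase10 was at or near background on all arrays but 1. It was 7.52 and 386 on the sham arrays, 0.791 and 12.7 on the castrated, 5.92 and 1.77 on the TP, and 6.67 and 8.56 on the E2 arrays. The second sham array stood alone, the first being below its background, and the groups overlapped otherwise, apart from TP, which lay below both sham and E2. In the sham, castrated and TP groups 1 array each was above background, and in the E2 group both were. The background was 2.33 to 3.97 on the hormone arrays and 8.09 to 14.3 on the vehicle arrays, so these counts cannot be compared between the sets. Castrated minus sham was −4.08 (interval −9.50 to 1.33; limma adjusted p = 0.418), where 0.291% of genes were called, and no order of the duct groups could be read. No other duct comparison of Rnase10 was called either: the adjusted p lay between 0.209 for TP minus sham and 0.994 for TP minus castrated (limma).

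The same sham array was also higher for most other marker genes of the caput. Lcn8, a lipocalin, was 15.5 and 1126 on the 2 duct sham arrays, Lcn9, another, was 9.21 and 797, and Gpx5, a secreted glutathione peroxidase, was 27.3 and 576. Adam7 was 1381 and 1484, and Spink10, a protease inhibitor, was 2535 and 2052. Unlike Rnase10, Gpx5 also read 676 on the first TP array and 448 on the second E2 array, and Adam7 1007 on the first TP array. In all, 12 of 14 caput markers read higher on the second sham array than on the first, with a median ratio of 1.64. Only 4 of the 14 were over 5-fold higher there, against 51.3-fold for Rnase10. The Rnase10 value of that array was 3.86% of the caput sham mean, and the value of Lcn8 12.3% and of Lcn9 8.66%. The part of caput tissue in the duct value of Rnase10 was not tested.

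**Figure D2:**
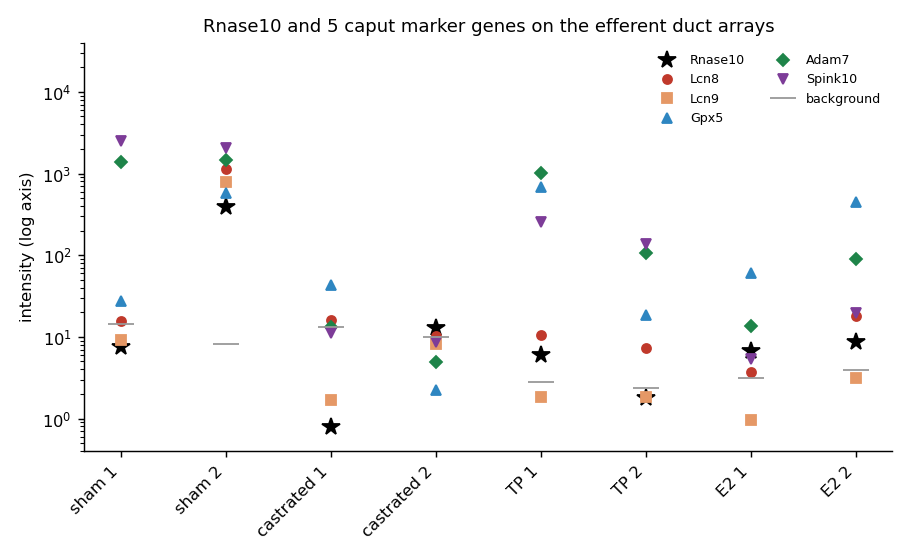
Intensity (log axis) of Rnase10 (stars) and of Lcn8, Lcn9, Gpx5, Adam7 and Spink10 on the 8 efferent duct arrays; grey dashes are the background of each array. Rnase10, Lcn8 and Lcn9 are high on the second sham array alone, at 386, 1126 and 797, while Adam7 and Spink10 are high on both sham arrays. Gpx5 is high on the second sham (576), first TP (676) and second E2 (448) arrays, and Adam7 also on the first TP array (1007).

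In sham mice, Rnase10 was lower in the duct than in the caput by 7.54 on the log2 scale (interval −11.27 to −3.80; limma adjusted p = 0.00348). Only 1 of the 2 duct sham arrays was above background, so the size of the difference is not exact. In this comparison 54.4% of genes were called and the median of all genes was −0.30, and the tissues also differ in labelling kit. The castration effect on Rnase10 was not called different between duct and caput (4.45, −0.82 to 9.73; limma adjusted p = 0.336), where 3.23% of genes were called. With values under 16 set to 16 it was 6.24 (limma adjusted p = 0.0478), with 16 added 5.72 (0.0122), and with 1 array left out it ranged over 1.61 to 7.29.

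Ang behaved the other way: the brightest of its 3 probe sets, and the third, were near background in the sham efferent duct and above it on both arrays of every other group. With the brightest set the intensity was 6.53 and 9.76 on the duct sham arrays, of which 1 was above background. It was 424 and 218 on the castrated arrays, 220 and 201 on the TP arrays, and 192 and 187 on the E2 arrays. Both sham arrays lay far below the other 6, and only castrated and TP overlapped. The order was castrated, TP, E2, sham. Castrated minus sham was 5.25 (interval 4.32 to 6.18; limma adjusted p = 0.0286), a 38.1-fold rise as measured and at least 25.7-fold when the first sham array is set at its background. Ang was 1 of 53 genes, 0.291% of those tested, that were called in this comparison, which lies within the vehicle arrays. The call was lost without the first sham array (4.96; limma adjusted p = 0.0548), without the second (5.54; 0.0613), and when only the 4 arrays compared were fitted (0.162).

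The levels of Ang did not differ beyond the threshold among the 3 castrated groups of the duct. TP minus castrated was −0.53 (−1.46 to 0.40; limma adjusted p = 0.308) and E2 minus castrated −0.68 (−1.61 to 0.25; 0.222 by the same test). These cross the 2 sets of duct arrays, with 35.5% and 30.7% of genes called and a median of all genes of 0.23 and 0.25. TP minus E2, within the hormone arrays, was 0.15 (−0.78 to 1.08; limma adjusted p = 0.982), where 0% of genes were called and 1467 had an unadjusted p under 0.05. Both hormone groups were above sham, by 4.72 with TP (3.79 to 5.65; limma adjusted p = 0.00841) and 4.57 with E2 (3.64 to 5.50; 0.00939). In these comparisons, which share the sham arrays, 30.8% and 27.5% of genes were called, and the median of all genes was 0.23 and 0.27. The TP call was lost without the first TP array (limma adjusted p = 0.05003), and the E2 call without the first (0.0666) or the second E2 array (0.0502).

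All 3 Ang probe sets were higher on the castrated than on the sham arrays of the duct, but their values in the hormone groups ran differently. The name of the brightest ends in s, the array's mark for probes shared by several transcripts, and that of the second ends in x, the mark for probes that may bind similar sequences, so for both a share from related genes cannot be told apart. The name of the third carries no such mark. The second set read 26.5 and 20.8 on the sham, 208 and 158 on the castrated, 180 and 172 on the TP, and 150 and 156 on the E2 arrays. The third set read 4.84 and 13.2 on the sham, 40.2 and 67.3 on the castrated, 192 and 166 on the TP, and 171 and 166 on the E2 arrays. Sham was lowest, without overlap, in all 3, and the second set was above background on both sham arrays.

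With every probe set fitted as a row of its own, castrated minus sham was 5.25 for the brightest set (limma adjusted p = 0.0341), 2.95 for the second (0.0348) and 2.70 for the third (0.132). From castrated to TP the first 2 sets had differences of −0.53 and −0.04, while the third had 1.78 (0.48 to 3.09; limma adjusted p = 0.0547), and from castrated to E2 it had 1.70 (0.0693). In direction the sets therefore disagreed on what followed castration in the duct, across the 2 sets of arrays. TP minus sham was called for all 3 (4.72, 2.90 and 4.48), and E2 minus sham likewise (4.57, 2.70 and 4.40), each with a limma adjusted p of 0.0142 for TP and 0.0152 for E2.

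**Figure D3:**
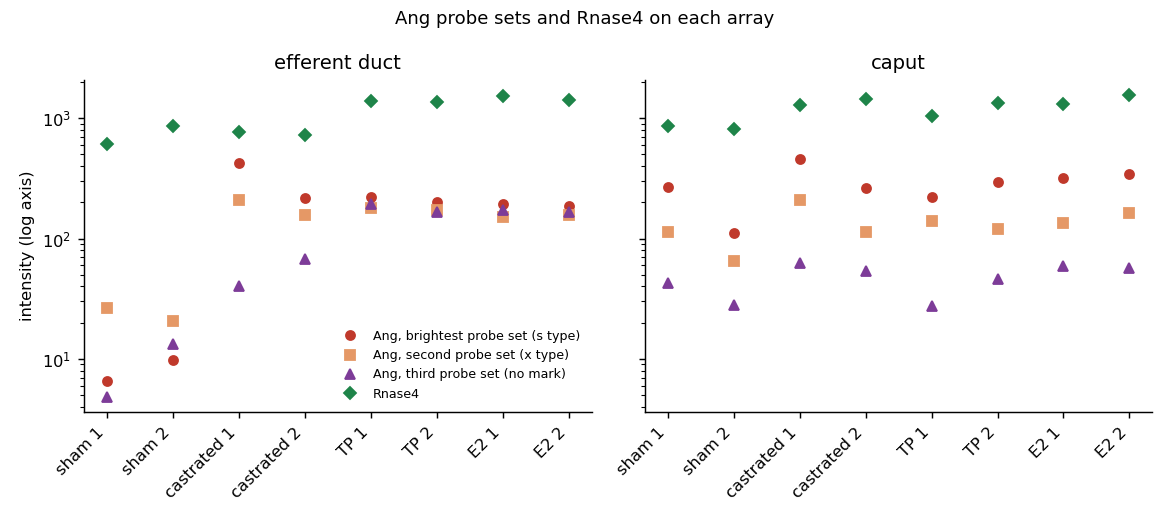
Intensity (log axis) of the 3 Ang probe sets and of Rnase4 on each array of the efferent duct (left) and the caput (right); each point is 1 array. In the duct all 3 Ang sets are lowest on the sham arrays, and the third set is intermediate on the castrated arrays (40.2 and 67.3) while the other 2 have their highest value on the first of these.

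In the caput Ang was present in all groups and no difference passed the test. The brightest set read 270 and 111 on the sham arrays, 457 and 263 on the castrated, 222 and 297 on the TP, and 317 and 346 on the E2 arrays. The duplicates differed by up to 2.43-fold, in sham, and sham overlapped with castrated and TP. The order of the means was castrated, E2, TP, sham. The difference between castrated and sham was 1.00 (−0.25 to 2.25; limma adjusted p = 0.239), and the adjusted p of the other 5 comparisons was between 0.250 and 0.969. The other 2 probe sets gave 0.85 and 0.74 for castrated minus sham, also not called.

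The castration effect on Ang was larger in the duct than in the caput. The difference of the effects was 4.25 (interval 2.80 to 5.70; limma adjusted p = 0.0136), in a test that called 3.23% of genes. It was lost without the second castrated array of the caput (3.85; limma adjusted p = 0.0540). For the other 2 probe sets it was 2.10 and 1.96, with limma adjusted p of 0.0640 and 0.167. In sham mice Ang was lower in the duct by 4.44 on the log2 scale as measured (−5.47 to −3.42; limma adjusted p = 2.62e-05), at least 14.7-fold by the means of log2 values when the first duct array is set at its background, and all 3 probe sets were called in this direction.

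Rnase4, which shares its first listed start with Ang and has a second of its own, did not follow Ang after castration in the duct. It was 609 and 862 on the sham arrays, 766 and 726 on the castrated, 1391 and 1369 on the TP, and 1520 and 1420 on the E2 arrays. Sham and castrated overlapped, all 4 hormone arrays lay above all 4 vehicle arrays, and TP lay just below E2. The difference between the castrated and sham groups was 0.04 (−0.50 to 0.59; limma adjusted p = 0.943), an interval that does not reach the difference of Ang. The 2 genes were not tested against each other.

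Rnase4 was higher on the hormone arrays than on the vehicle arrays of the duct. TP minus castrated was 0.89 (0.34 to 1.43; limma adjusted p = 0.0284) and E2 minus castrated 0.98 (0.43 to 1.52; 0.0247), against a median of all genes of 0.23 and 0.25. TP minus sham was 0.93 (limma adjusted p = 0.0286) and E2 minus sham 1.02 (0.0246). With 2 arrays a group these calls were fragile: TP minus castrated and E2 minus castrated were each lost without any 1 of their 4 arrays (limma adjusted p 0.0781 to 0.111 and 0.0708 to 0.119). TP minus sham was lost without the first sham array or either TP array (limma adjusted p 0.0943 to 0.110), and E2 minus sham without the first sham array or either E2 array (0.0869 to 0.120). All 4 were also lost when only the 4 arrays compared were fitted (limma adjusted p 0.0577 to 0.0908). After quantile normalization they were larger, at 1.51, 1.45, 1.56 and 1.49. TP minus E2 was −0.09 (−0.63 to 0.45; limma adjusted p = 0.981). Some marker lists also differed between these 2 sets of arrays, and others overlapped between them. The 4 adipocyte markers summed to 1263 to 1766 on the duct vehicle arrays and to 3872 to 5960 on the hormone arrays, and 3 of 4 were called higher in TP minus castrated and 4 of 4 in E2 minus castrated, against 35.5% and 30.7% of all genes called. The 6 endothelial markers summed to 427 to 718 and to 992 to 1519, with 4 called higher in each comparison. The 8 macrophage markers summed to 2540 to 5032 and to 3421 to 6024, which overlap, with 6 called higher in each. Exocrine pancreas markers summed to 34.2 to 51.4 and to 78.4 to 116. Cela1 was the largest part of that sum on every array, and Cpa1, Cel and Prss2 were above background on 1, 7 and 9 of the 16 arrays. Smooth muscle markers, at 2917 to 4400 and 2751 to 3859, overlapped, as did efferent duct markers, at 4443 to 7211 and 3133 to 4901. The part of these markers, or of the difference between the array sets, in the values of Rnase4 was not tested.

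In the caput Rnase4 was lowest in sham. It was 863 and 813 on the sham arrays, 1272 and 1449 on the castrated, 1038 and 1334 on the TP, and 1320 and 1559 on the E2 arrays. The 2 sham arrays lay below the other 6, which overlapped. E2 minus sham was 0.78 (0.32 to 1.23; limma adjusted p = 0.0428), a rise of 1.71-fold. It was lost without any 1 of its 4 arrays (limma adjusted p 0.0914 to 0.153), with only those 4 fitted (0.103) and with probe sets averaged or kept apart (0.0589 and 0.0551). Castrated minus sham was 0.70 (0.24 to 1.15) with a limma adjusted p of 0.0607, and TP minus sham 0.49 with 0.144. The 3 castrated groups did not differ from each other beyond the threshold, with limma adjusted p of 0.488 to 0.877. In sham mice the difference between duct and caput was −0.21 (−0.64 to 0.22; limma adjusted p = 0.390).

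Rnase1 was higher on castrated than on sham arrays in both tissues, short of the threshold in each. In the duct it was 71.4 and 55.5 on the sham arrays, 167 and 146 on the castrated, 90.2 and 101 on the TP, and 47.1 and 49.1 on the E2 arrays. The 4 groups did not overlap, and the order was castrated, TP, sham, E2. Castrated minus sham was 1.31 (0.81 to 1.82; limma adjusted p = 0.0825), a ratio of 2.49. TP minus E2, within the hormone arrays, was 0.99 (0.48 to 1.50; limma adjusted p = 0.308), a ratio of 1.99, and no gene was called in that comparison.

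Rnase1 was lower on the hormone arrays than on the castrated arrays of the duct, against a median of all genes that went up by 0.23 and 0.25. These comparisons, and those with sham below, cross the 2 sets of duct arrays, so hormone and array set cannot be told apart. Against castrated, 35.5% of all genes were called with TP and 30.7% with E2. TP minus castrated was −0.71 (−1.22 to −0.20; limma adjusted p = 0.0442) and E2 minus castrated −1.70 (−2.21 to −1.19; 0.00715), which is 3.25-fold lower. The TP call was lost without any 1 of its 4 arrays (limma adjusted p 0.0797 to 0.173), with only those 4 fitted (0.109), in 1 fit of all 16 arrays (0.0896) and with probe sets averaged or kept apart (0.0719 and 0.0644), and the E2 call without the first E2 array (0.0550). After quantile normalization the differences were −1.48 and −2.33. Against sham neither hormone group was called (TP 0.60, limma adjusted p = 0.0747, and E2 −0.39, 0.208). With quantile normalization TP minus sham turned to −0.25 (limma adjusted p = 0.461) and E2 minus sham became −1.10 (0.0303).

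In the caput Rnase1 was 22.2 and 22.5 on the sham arrays, 44.7 and 91.3 on the castrated, 69.8 and 67.3 on the TP, and 78.1 and 52.2 on the E2 arrays. Both sham arrays were below the other 6, whose groups overlapped. Castrated minus sham was 1.51 (0.56 to 2.47; limma adjusted p = 0.0573), TP minus sham 1.62 (0.66 to 2.57; 0.0601) and E2 minus sham 1.51 (0.56 to 2.47; 0.0519), with the same sham arrays in each. Differences among the 3 castrated groups were at most 0.10 and none was called. In sham mice Rnase1 was higher in the duct, by 1.49 (0.80 to 2.19; limma adjusted p = 0.00239), against a median of all genes of −0.30. Markers of exocrine pancreas, where Rnase1 is abundant, summed to 38.6 to 51.4 on the duct sham arrays and to 230 to 260 on the caput sham arrays. Most of these sums came from 1 gene, Cela1, at 34.6 and 34.2 in the duct and 220 and 196 in the caput. Endothelial markers summed to 440 to 475 on the duct sham arrays and to 469 to 559 on the caput sham arrays. Of these 6 markers, 1 was called higher in the sham duct and 3 lower, against 54.4% of all genes called. The part of either in the level of Rnase1 was not tested.

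**Figure D4:**
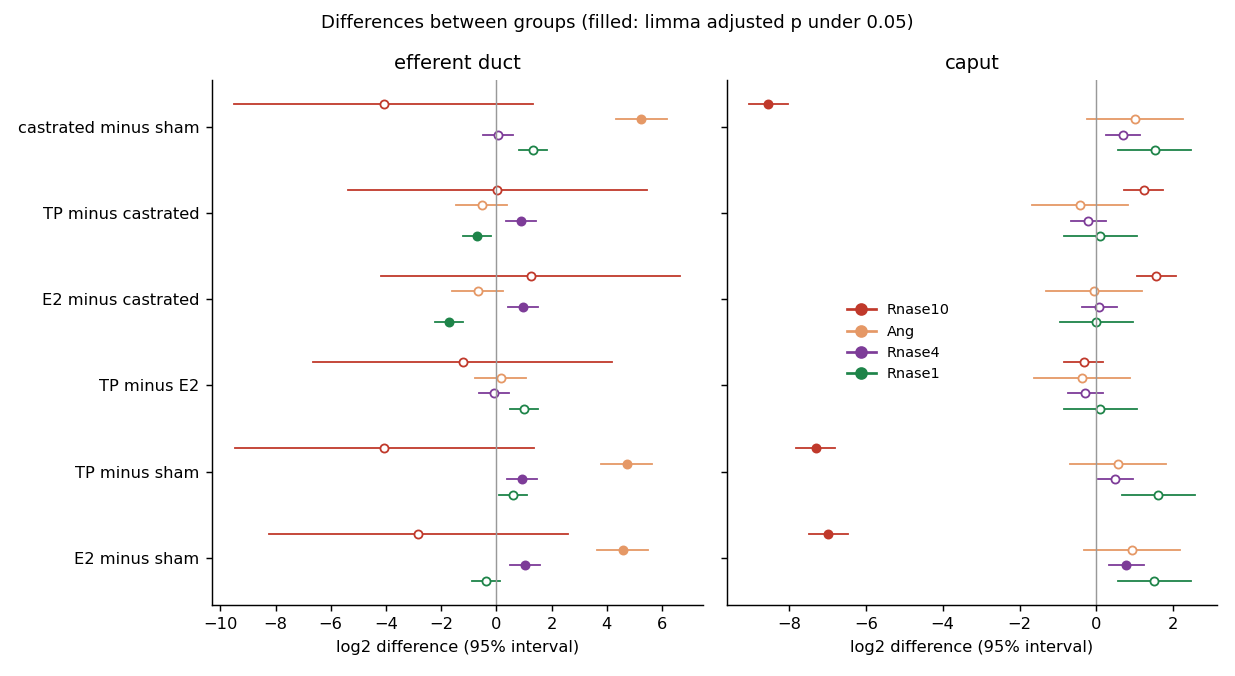
Log2 differences between groups with 95% intervals for the 4 genes in the efferent duct (left) and the caput (right); filled points had a limma adjusted p under 0.05. Rnase10 is far below 0 in the caput comparisons with sham (−8.54, −7.31 and −6.98), and Ang far above 0 in those of the duct (5.25, 4.72 and 4.57).

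Read together by comparison, the 4 genes had different calls. Castration gave 1 higher and 0 lower of 4 in the duct (Ang) and 0 higher and 1 lower in the caput (Rnase10), against 0.291% and 14.0% of all genes called. TP and E2 against castrated each gave 1 higher (Rnase4) and 1 lower (Rnase1) in the duct, where 35.5% and 30.7% of all genes were called, and none in the caput, where 1.67% and 0% were. Nothing is read from counts over 4 genes. The difference between TP and E2 was called for none of the 4 in either tissue, nor was its difference between tissues, where 0.0495% of genes were called.

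Of 23 other genes of the family, 7 had a probe set of their own, and 3 of these were above background on both arrays of some group: Rnase2a, Ear3 and Rnase6. Rnase2a, an eosinophil-associated ribonuclease, read highest on the duct E2 arrays. It was 17.8 and 7.48 on the duct sham arrays, 8.12 and 10.4 on the castrated, 28.7 and 26.4 on the TP, and 149 and 126 on the E2 arrays. The E2 arrays were the highest, TP came next, and sham and castrated overlapped near background. E2 minus castrated was 3.90 (2.83 to 4.97; limma adjusted p = 0.00677), at least 11.7-fold, and TP minus castrated was 1.58 (0.51 to 2.65; 0.0374). Both comparisons cross the 2 sets of duct arrays, with 30.7% and 35.5% of all genes called, so hormone and array set cannot be told apart. The E2 call was lost without the first E2 array (3.78; limma adjusted p = 0.0544). The TP call was lost without any 1 of its 4 arrays (0.0813 to 0.139), with quantile normalization (0.0898), with probe sets averaged (0.0516) and in 1 fit of all 16 arrays (0.145). TP minus E2, within the hormone arrays, was −2.31 with a limma adjusted p of 0.272, where 0% of genes were called. In the caput it was between 0.637 and 17.3 and above background on both arrays of the E2 group alone.

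The 5 eosinophil markers read low on all duct arrays. They summed to 23.4 and 25.0 on the E2 arrays, with 3 and 4 of 5 above background. On the castrated arrays they summed to 25.4 and 41.7, with 1 and 2 above background, and on the sham arrays to 16.9 and 24.4, with 0. The background was 3.14 and 3.97 on the E2 arrays and 8.09 to 14.3 on the duct vehicle arrays. The counts above background can therefore not be compared between these sets. None of the 5 was called in E2 minus castrated, and 1 was called higher in E2 minus sham. In these comparisons, which cross the 2 sets of duct arrays, 30.7% and 27.5% of all genes were called. Macrophage markers summed to 3466 to 6024 on the E2 arrays and to 2540 to 4102 on the castrated, which overlap. Of the 8, 6 were called higher in E2 minus castrated, against 30.7% of all genes called, and 2 were not called. C1qb read 2468 and 1627 on the castrated and 2371 and 1189 on the E2 arrays. The part of either cell type in the level of Rnase2a was not tested. Ear3, another eosinophil-associated ribonuclease, was 62.7 and 21.6 on the duct TP and 60.8 and 24.9 on the duct E2 arrays, against 7.24 to 14.7 on the duct vehicle arrays, and was not called (E2 minus castrated 1.65, limma adjusted p = 0.138).

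Rnase6, an antimicrobial ribonuclease of phagocytes, was above background on all 16 arrays. In the caput it was 45.8 and 74.0 on the sham, 101 and 108 on the castrated, 173 and 146 on the TP, and 77.4 and 106 on the E2 arrays. The TP arrays were the highest and the sham arrays the lowest, without overlap between them. TP minus sham was 1.45 (0.73 to 2.17; limma adjusted p = 0.0431). That call was lost without any 1 of its 4 arrays (limma adjusted p 0.0752 to 0.163), with only those 4 fitted (0.123), and with probe sets averaged, quantile normalization or 1 fit of all 16 arrays (0.0535 to 0.0573). Of the other 4 family genes, Ang2, Ang3 and Ang4 were called in no comparison. Rnase2b was called lower with TP in the duct while both groups compared were below background, so no fold is given.

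**Figure D5:**
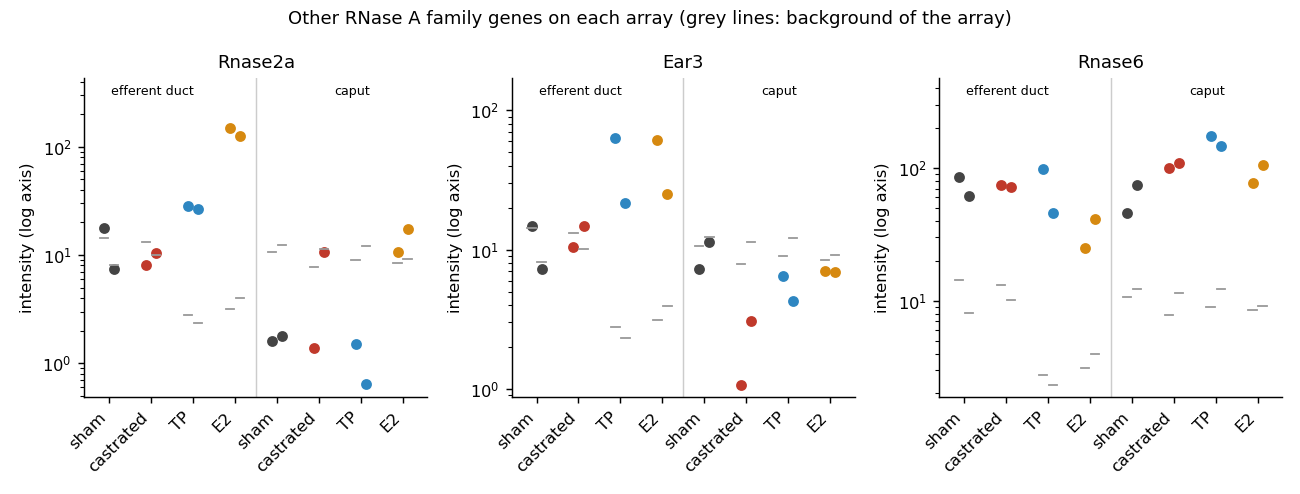
Intensity (log axis) of Rnase2a, Ear3 and Rnase6 on each of the 16 arrays, with the background of each array as a grey line. Rnase2a is highest on the 2 duct E2 arrays (149 and 126), and Rnase6 on the 2 caput TP arrays (173 and 146).

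Of 5 partners of angiogenin, 1 fell and 1 rose in the caput after castration, where 14.0% of all genes were called. Rnh1, the ribonuclease inhibitor that binds and blocks these enzymes, fell from 1477 and 1665 on the sham arrays to 1004 and 981 (−0.66; limma adjusted p = 0.0270). Plxnb2, a receptor of angiogenin, rose from 359 and 405 to 676 on both arrays (0.82; 0.0180). Neither overlapped between the groups, and both calls were lost without any 1 of the 4 arrays (limma adjusted p 0.0851 to 0.120 for Rnh1 and 0.0628 to 0.0925 for Plxnb2) or with only those 4 fitted (0.0966 and 0.0775). Quantile normalization also ended the call of Rnh1 (0.0711). Nsun2 and Trdmt1, transfer RNA methyltransferases, and Sdc4, a cell surface proteoglycan, were not called. In the duct none of the 5 was called in castrated minus sham (0.291% of all genes), 4 of 5 were higher in TP minus castrated (35.5%) and 3 of 5 in E2 minus castrated (30.7%), the latter comparisons across the 2 sets of arrays. Of 9 ribonucleases outside the family, castration gave 0 called in the duct and 1 higher in the caput, near the shares of all genes (0.291% and 14.0%).

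Of the 16 other genes that lie within 5 annotated protein-coding genes of the 4, with other kinds of gene left out, 8 were measured. None was called in castrated minus sham in the duct, in a comparison that called 0.291% of all genes. In the caput Pnp, a purine nucleoside phosphorylase on the Rnase10 side of the cluster, fell by 0.85 on the log2 scale (limma adjusted p = 0.0389), and the other 7 were not called, against 14.0% of all genes. The call of Pnp was lost without any 1 of its 4 arrays (limma adjusted p 0.101 to 0.161), with only those 4 fitted (0.0866), with probe sets averaged (0.0555) and with quantile normalization (0.0697).

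The genes most like each of the 4 were taken by Pearson correlation of log2 intensity over the 8 arrays of a tissue, among the 9097 brighter genes. For Rnase10 in the caput they were Tm7sf2 (0.993), Zfp697, Lipi, Arfgef3 and Adam28. Adam28, a metalloprotease of the caput, had means of 3494 in sham and 42.9, 42.3 and 78.8 in the castrated, TP and E2 groups. For Ang in the duct they were Gm5141 (0.996), Atf7ip, Bmp6, Sp1 and Tmem204. Bmp6, a growth factor, had means of 29.6 in sham and 100.1, 101.6 and 95.1 in the other groups. For Rnase4 in the duct they were Pop5 (0.991), Trrap, Psmg3, Stk11 and Tgfbr2, all higher on the hormone arrays. For Rnase1 in the duct they were Mtarc1 (0.982), Atxn1l, Ubtf, Ttc29 and Mysm1, and in the caput Pid1 (0.981), Cdc42ep3, Ndn, Wrnip1 and Lysmd3. The arrays of a tissue share the split between groups, so these values describe the pattern and carry no test.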

How the data were processed

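The deposited table gives 1 intensity per probe set and array for 45101 Affymetrix probe sets. The values are on a linear scale made by the authors; RMA is named in the submitters' processing notes, without a version, but quantiles differ between arrays and each array has a trimmed mean of 125.0 (2% left out at each end), so the exact steps are not given in the sources used here. Of the probe sets, 34958 carry 1 gene symbol, 932 several and 9211 none; only the first were used. Each gene was represented by its brightest probe set over all arrays.

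The log2 of the deposited intensity was taken and fitted with limma 3.58.1 in R 4.3.3, 1 fit of 8 arrays per tissue without covariates, and 1 fit of all 16 for differences between tissues. The self-check of the fit was made on simulated data. The number of arrays limits the precision. Alternatives were the mean of probe sets, all probe sets, a filter on dim genes, quantile normalization, a floor of 16, an added 16, a prior trend, other sets of arrays, a replicate block and each array left out. Named genes were the 4 members whatever their values, other family genes above background on all arrays of a group, listed partners and neighbours, and the 5 most alike genes per tissue. The members and lists were chosen with earlier results of these data known. Promoter sequences are from RefSeq (GRCm38.p6). Proteins were not used here.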

Additional observations from a re-analysis of the deposited data

Results flagged for a closer look

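The effect of castration on Ang, taken by its brightest probe set, differed between the tissues by a direct test. Castrated minus sham was 5.25 for the duct but 1.00 for the caput (log2), a difference of 4.25 (95% interval 2.80 to 5.70; limma adjusted p = 0.0136). The difference was not called for the other 2 probe sets, at 2.10 (limma adjusted p = 0.0640) and 1.96 (0.167). Without the second castrated array of the caput it was 3.85 for the brightest set. Of 16 alternatives for that set, 2 ended the call: leaving out that array, and the replicate block (limma adjusted p = 0.0852). The labelling kit also differed between the tissues. Its part was not tested.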

How the results depend on the processing

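Of 60 differences of the 4 genes, 17 passed the threshold, and none of the 17 changed sign. Of these, 4 passed it under every alternative (12 or 14 each). They were Rnase10 in TP minus sham of the caput, and Rnase10, Ang and Rnase1 between the tissues in sham, where tissue and kit cannot be told apart. Castrated minus sham of Ang in the duct and of Rnase10 in the caput were not among them. Of the 43 differences that did not pass the threshold, 31 passed it under no alternative. The replicate numbers did not pair the arrays: deviations of arrays with the same number correlated at −0.05 to 0.07 in the duct and −0.03 to 0.02 in the caput, and none of the 6 pairs of groups in either tissue was over 0.1. With the replicate block the castration effect on Ang in the duct stayed 5.25 with a limma adjusted p of 0.0768, and its difference from the caput stayed 4.25 with 0.0852. It also ended the call of Rnase4 for TP minus castrated (0.0502) and TP minus sham (0.0513) in the duct and for E2 minus sham in the caput (0.0514), and of Rnase1 for TP minus castrated in the duct (0.0705).

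When only the 4 arrays compared were fitted, castrated minus sham was not called for Ang in the duct (5.25; limma adjusted p = 0.162) or Rnase10 in the caput (−8.54; 0.0518). Castrated minus sham became called for Rnase1 in the duct (1.31), Rnase4 in the caput (0.70) and Rnase1 in the caput (1.51) without the 40% dimmest genes, with an intensity trend in the prior and in 1 fit of all 16 arrays. With 16 added it was called at 1.13, 0.69 and 1.07 for these 3, with values under 16 set to 16 at 1.31 for Rnase1 in the duct, and with quantile normalization at 0.83 for Rnase4 in the caput. Against sham in the caput, Rnase1 with TP and with E2 was called under 4 alternatives each (limma adjusted p 0.00952 to 0.0283 and 0.00959 to 0.0259) and Rnase4 with TP under 1 (0.0294). Rnase1 was called in TP minus sham of the duct under 3 (0.0272 to 0.0485), and Rnase4 between the tissues in sham under quantile normalization (−0.47; 0.0484). Leaving out 1 array gave castrated minus sham values in the duct of 4.77 to 5.73 for Ang and of −0.21 to 0.29 for Rnase4, the latter with a change of sign.

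No difference was called under an alternative that turned its sign. The mean of the Ang probe sets gave 0.40 for TP and 0.26 for E2 minus castrated in the duct. Quantile normalization gave 0.065 for TP minus E2 of Rnase4 and −0.25 for TP minus sham of Rnase1 in the duct. A floor of 16 gave 0.33, and an added 16 gave 0.012, for the tissue difference in TP minus E2 of Rnase10; an added 16 also gave −0.15 for its TP minus castrated in the duct and 0.053 for the tissue difference in the castration effect on Rnase1. With 1 array left out, Rnase4 ranged over −0.46 to 0.042 for the tissue difference in sham, over −0.040 to 0.20 for E2 minus castrated in the caput. With 1 array left out, Rnase10 ranged over −5.67 to 0.0070 for E2 minus sham in the duct, over −1.98 to 2.03 for TP minus castrated in the duct, over −0.75 to 3.26 for E2 minus castrated in the duct. With 1 array left out, Ang ranged over −0.073 to 1.21 for TP minus sham in the caput, over −0.46 to 0.33 for E2 minus castrated in the caput. With 1 array left out, Rnase1 ranged over −0.41 to 0.62 for TP minus castrated in the caput, over −0.52 to 0.51 for E2 minus castrated in the caput, over −0.72 to 0.31 for the tissue difference in castrated minus sham, over −0.19 to 0.39 for TP minus E2 in the caput. Counts of called genes moved too: castrated minus sham called 53 genes in the duct (0 to 91 with 1 array left out, 0 to 991 under the other alternatives) and 2550 in the caput (326 to 523, and 0 to 4408). The cause was not tested.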
